A study of Mus musculus with 10 samples.

Results

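The interleukin-1 (IL-1) family and inflammasome genes Il1a, Il1b, Il1rn, Il18, Il33, Il18bp, Nlrp3, Pycard, Casp1 and Casp4 were followed across 10 Affymetrix arrays of immortalized mouse macrophages. The genes were chosen by name as a pathway, and each was read by the probe set that the platform annotation gave to that gene alone. All 10 were measured, each by 1 such probe set, among 19938 genes read in this way. The study asked which genes differ in expression between macrophages with and without Toll-like receptor 9 (TLR9), an endosomal DNA receptor, when they meet β-1,3 glucan, a sugar of the fungal cell wall.

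The first group was the TLR9KO line, labelled as a Tlr9 knockout, given beads of β-1,3 glucan at 20 beads per cell for 4 h (2 arrays), and the second was the same line left unstimulated (2 arrays). The third group was the wild-type B6 line (WT) given the same beads (3 arrays), and the fourth was the wild-type line left unstimulated (3 arrays). All cells were immortalized, and each genotype was represented by a single line, so line and genotype cannot be told apart. The array titles also carry bracketed numbers of undescribed meaning, lower for every TLR9KO array than for any WT array, so an order of handling, if they record one, could not be separated from the line either. No label says whether replicate arrays derive from different culture dishes, and the p-values therefore cover just the array-to-array spread, which may be technical.

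IL-1α and IL-1β signal through a shared receptor, and the IL-1 receptor antagonist, encoded by Il1rn, occupies that receptor without signalling. IL-1β and IL-18 are made as inactive precursors that caspase-1 cleaves, and caspase-1 is activated on the inflammasome, a complex of a sensor such as NLRP3 with the adaptor ASC, encoded by Pycard. In macrophages the mRNAs of Il1b and Nlrp3 are classically induced through NF-κB in a priming step, and the cleavage that follows is not visible in mRNA.

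Signals are deposited log2 values. A difference of 1 on this scale is a doubling, and errors are the standard error (SE) of the limma fit to all 4 groups. Genes with a p under 0.05 after Benjamini-Hochberg adjustment over all 19938 genes passed. Bulk RNA cannot tell fewer cells of a type from less RNA per cell. Over the arrays the 25th percentile of all genes lay between 4.78 and 5.12, and values below it are called low signal here, since no detection calls were used. WT bead array 3 stood apart from its group. Its mean Pearson correlation with its group mates across genes was 0.973, against 0.994 to 0.997 in the arrays of the other groups. Its mates had 0.985 and 0.986, means that include their correlation with it. The values of WT bead array 3 spread least (SD over genes 1.75, against 1.86 to 2.00 in the other 9 arrays). Counts of calls among the 10 genes and the pathway lists that move with it by over 1.5 times are given with and without it.

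Tlr9 itself read 7.44 and 7.62 in unstimulated TLR9KO arrays, against 7.32, 6.91 and 7.25 in unstimulated WT arrays. Bead-treated TLR9KO arrays read 7.35 and 7.31, and bead-treated WT arrays 7.03, 7.21 and 7.44. The signal was thus not lower in the TLR9KO line, with differences of 0.37 ± 0.15 and 0.10 ± 0.15 that did not pass in limma (adjusted p = 0.244 and 1). No source here places the probe set inside or outside the deletion, so these values do not check the labels.

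The macrophage markers were well above low signal in every array, with a mean over 8 genes of 10.51 to 10.74 in TLR9KO arrays and 9.85 to 10.35 in WT arrays. Of these markers 4 were higher and 1 was lower in the TLR9KO line in both comparisons of the lines. Among all genes 8.25% passed unstimulated and 7.22% with beads. The monocyte marker Cd14 differed by 2.46 ± 0.18 without beads and 2.42 ± 0.18 with beads, and the phagocytic receptor Mertk by -1.50 ± 0.21 and -1.94 ± 0.21 (limma adjusted p = 4.5e-05 or less and 0.00179 or less). None of 39 measured markers of 5 other groups (neutrophils, dendritic cells, lymphocytes, fibroblasts with epithelium, mast cells with basophils) passed in limma. At an unadjusted p under 0.05 there was 1 in each comparison, where 17.9% and 16.1% of all genes reached it. Many were at low signal in every array of a group, so differences in them may not be visible. These were 4 or 5 of 9 neutrophil, 4 of 7 lymphocyte and 4 or 5 of 6 mast cell and basophil markers. Of dendritic cell markers these were 2 of 7, and of fibroblast and epithelium markers 0 or 1 of 10. Whether the macrophage marker differences play a part in the values below was not tested.

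**Figure D1:**
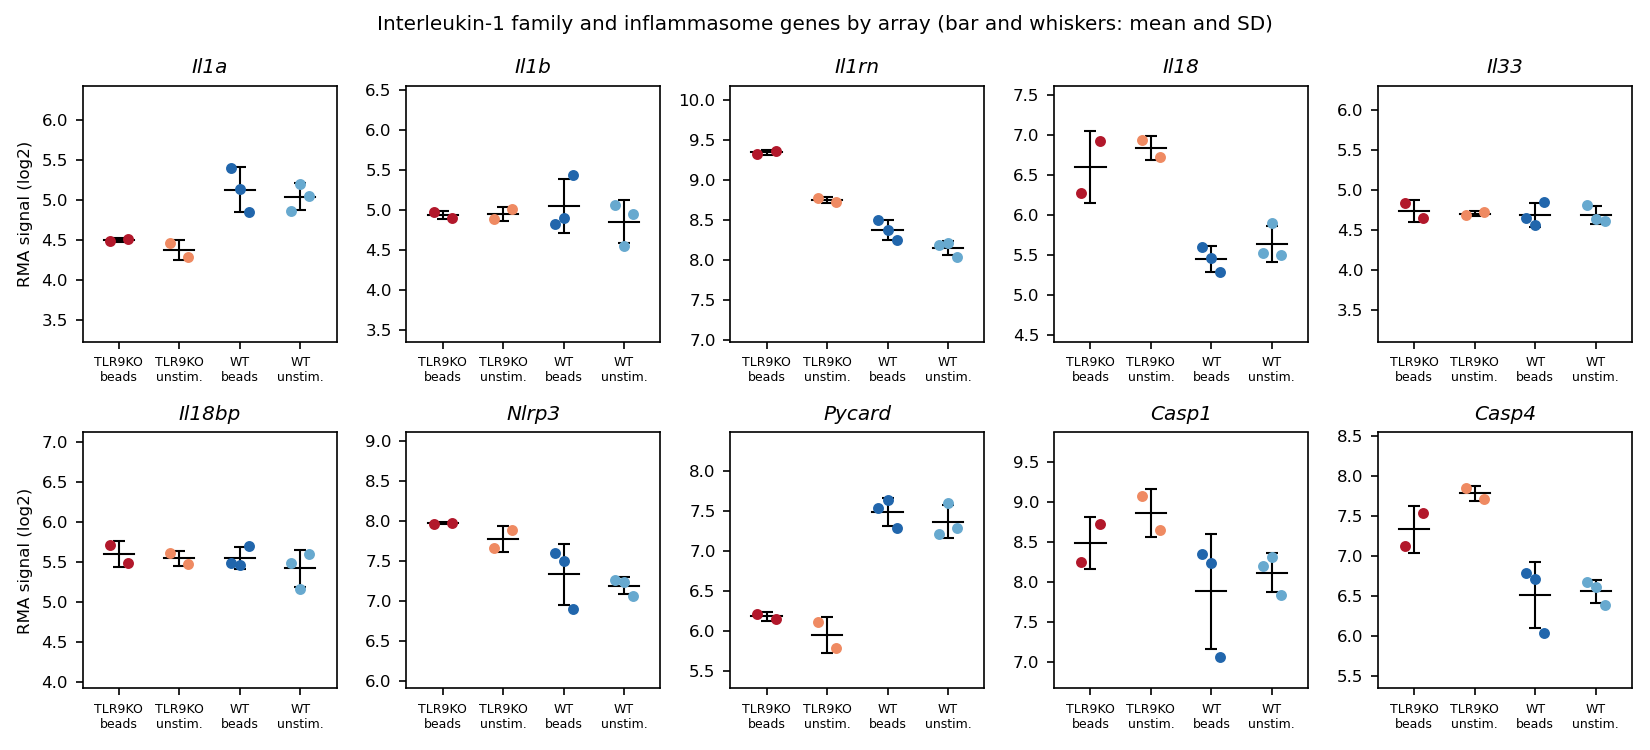
Deposited log2 signal (y axis) of the 10 genes in each array, in 4 groups: TLR9KO with beads, TLR9KO unstimulated, WT with beads and WT unstimulated. Points are arrays, and bars and whiskers are the group mean and SD (n = 2 for TLR9KO groups, 3 for WT groups). Pycard and Il1a lie lower, and Il1rn, Il18, Casp4 and Nlrp3 lie higher, in every TLR9KO array than in any WT array. Not all of these differences passed in limma. Il1b overlaps among all 4 groups.

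Without beads the TLR9KO line had more mRNA of Il18, Casp4 and Il1rn and less of Pycard and Il1a than the wild-type line. Pycard had the largest difference in size, 2.67-fold lower, and Casp4 was 2.34-fold, Il18 2.29-fold and Il1rn 1.52-fold higher. Thus 5 of the 10 genes passed (3 higher, 2 lower), where 8.25% of all genes passed (3.79% higher and 4.46% lower). The arrays of the lines did not overlap for 7 of the 10, where 38.8% of all genes did not overlap. At an unadjusted p under 0.05 the shares were 6 of the 10 genes and 17.9% of all genes, and 7 of the 10 and 26.9% without WT bead array 3. The median difference over the 10 genes was 0.35, and over all genes 0.02.

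With beads Pycard was again lower, and Il18 and Il1rn were again higher, in the TLR9KO line. These 3 of the 10 genes passed (2 higher, 1 lower), where 7.22% of all genes passed (3.82% higher and 3.40% lower). The arrays of the lines did not overlap for 6 of the 10, where 23.6% of all genes did not overlap. An unadjusted p under 0.05 was reached by 6 of the 10 genes and 16.1% of all genes, and by 6 of the 10 and 33.7% without WT bead array 3. The median difference over the 10 genes was 0.33, and over all genes -0.01. Without WT bead array 3, 6 genes passed with beads (Il1a, Nlrp3 and Casp4 in addition) and 20.9% of all genes did. The same omission gave 7 genes in the unstimulated comparison (Nlrp3 and Casp1 in addition), where 18.4% of all genes passed. The unstimulated count was 1 and 2 without TLR9KO unstimulated array 1 or 2, where 3.42% and 3.68% of all genes passed. Centring the arrays on their medians also left 1 in that comparison, Pycard alone, where 3.87% of all genes passed. Quantile normalization turned the unstimulated split into 4 higher and 1 lower, where 12.5% of all genes passed.

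**Figure D2:**
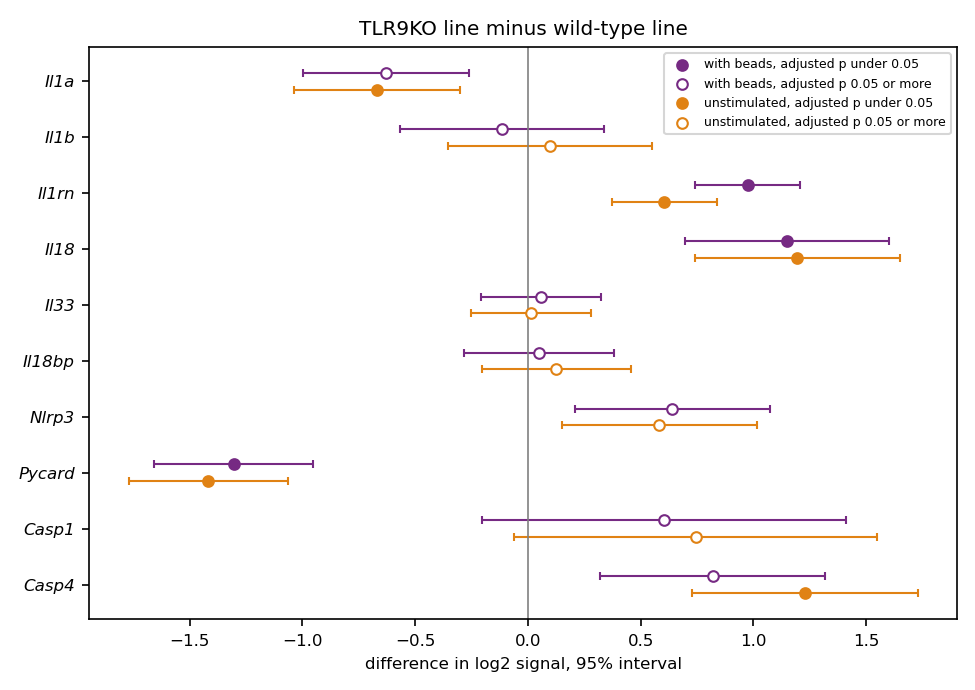
Difference in log2 signal between the TLR9KO and wild-type lines (x axis) for the 10 genes (y axis), with beads and unstimulated, as points with 95% confidence intervals of the limma fit. Filled points passed at an adjusted p under 0.05. Pycard lies at -1.31 with beads and -1.42 unstimulated. Il1b and Il33 lie near 0 in both, Il33 at low signal and Il1b close to it.

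Among the ligands, Il1b, which encodes the secreted pyrogen IL-1β, was at 4.89 and 5.02 in unstimulated TLR9KO arrays and 5.07, 4.56 and 4.95 in unstimulated WT arrays. With beads it was at 4.98 and 4.91 in TLR9KO arrays and 4.82, 4.90 and 5.44 in WT arrays. The groups overlapped in both comparisons, and the highest value of all was that of WT bead array 3. The lines differed by 0.10 ± 0.20 unstimulated (95% interval -0.35 to 0.55) and by -0.11 ± 0.20 with beads (-0.57 to 0.34), and neither difference passed in limma (adjusted p = 0.998 and 1). A single array, in the unstimulated WT group, was below the 25th percentile, and the other 9 lay above it, most of them only just. TLR9KO bead array 1 read 4.98 where the percentile was 4.97, and TLR9KO unstimulated array 1 read 4.89 against 4.87. WT bead array 1 read 4.82 against 4.78. At this signal a difference in Il1b may not be visible.

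Il1a encodes IL-1α, which is active without caspase-1 cleavage. Unstimulated TLR9KO arrays held 4.47 and 4.29, against 4.87, 5.20 and 5.06 in unstimulated WT arrays. With beads the values were 4.49 and 4.52 in TLR9KO arrays and 5.41, 5.14 and 4.85 in WT arrays. All TLR9KO arrays lay below all WT arrays of the same treatment. The difference was -0.67 ± 0.16 unstimulated, 1.59-fold lower in TLR9KO (limma adjusted p = 0.0355), and -0.63 ± 0.16 with beads (adjusted p = 0.0502). All 4 TLR9KO arrays and 2 of the 6 WT arrays were below the 25th percentile, so the size of this difference is uncertain. The unstimulated call was lost without each array in turn except WT bead arrays 1 and 3, with adjusted p from 0.0502 to 0.274. Without WT bead array 3 the difference with beads was -0.77 (adjusted p = 0.00184).

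Il18 encodes the precursor of IL-18, which macrophages hold without stimulation. Its signal was 6.94 and 6.73 in unstimulated TLR9KO arrays and 5.52, 5.90 and 5.50 in unstimulated WT arrays. With beads it was 6.28 and 6.92 in TLR9KO arrays and 5.61, 5.46 and 5.29 in WT arrays. Every TLR9KO array lay above every WT array. The lines differed by 1.20 ± 0.20 unstimulated (2.29-fold, adjusted p = 0.00574) and by 1.15 ± 0.20 with beads (2.22-fold, adjusted p = 0.00733). The call ended without TLR9KO unstimulated array 1 in the unstimulated comparison (1.09, adjusted p = 0.0741) and without TLR9KO bead array 2 in the bead comparison (0.83, adjusted p = 0.0783).

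Il33, an alarmin mostly of epithelial and stromal cells, was below the 25th percentile in all 10 arrays, between 4.56 and 4.84. Its differences between the lines were 0.01 ± 0.12 unstimulated and 0.06 ± 0.12 with beads, so none was detectable at this signal.

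Of the antagonists, Il1rn was higher in the TLR9KO line with and without beads. Unstimulated TLR9KO arrays held 8.78 and 8.73, against 8.19, 8.21 and 8.05 in unstimulated WT arrays. With beads TLR9KO arrays held 9.33 and 9.37, against 8.50, 8.38 and 8.25 in WT arrays. No TLR9KO array came down to the highest WT array. The difference was 0.60 ± 0.10 unstimulated (1.52-fold, adjusted p = 0.00622) and 0.98 ± 0.10 with beads (1.97-fold, adjusted p = 3.95e-04). The unstimulated call ended without TLR9KO unstimulated array 1 (0.58, adjusted p = 0.0719) or array 2 (0.63, adjusted p = 0.0513), and the call with beads held whichever single array was left out.

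Il18bp encodes a secreted protein that binds IL-18 and blocks it. It was at 5.61 and 5.48 in unstimulated TLR9KO arrays and 5.49, 5.17 and 5.60 in unstimulated WT arrays. With beads it was at 5.71 and 5.49 in TLR9KO arrays and 5.48, 5.47 and 5.70 in WT arrays. The groups overlapped, and the differences of 0.13 ± 0.15 (95% interval -0.21 to 0.46) and 0.05 ± 0.15 (-0.28 to 0.38) did not pass.

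Nlrp3 encodes the sensor of the inflammasome that responds to particles and ion flux. Unstimulated TLR9KO arrays held 7.66 and 7.89, against 7.27, 7.24 and 7.07 in unstimulated WT arrays. With beads the values were 7.96 and 7.98 in TLR9KO arrays and 7.60, 7.49 and 6.90 in WT arrays. All TLR9KO values were above all WT values of the same treatment, and WT bead array 3 was the lowest of all 10. The differences of 0.58 ± 0.19 unstimulated and 0.64 ± 0.19 with beads did not pass in limma (adjusted p = 0.115 and 0.0903). Both passed without WT bead array 3, at 0.58 (adjusted p = 0.00182) and 0.42 (adjusted p = 0.0172).

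Pycard encodes ASC, the adaptor that joins sensors to caspase-1. Its signal was 6.11 and 5.79 in unstimulated TLR9KO arrays, against 7.21, 7.60 and 7.29 in unstimulated WT arrays. With beads it was 6.22 and 6.14 in TLR9KO arrays and 7.54, 7.63 and 7.29 in WT arrays. The highest TLR9KO array was below the lowest WT array in each comparison. The difference was -1.42 ± 0.16 unstimulated (2.67-fold lower, adjusted p = 4.94e-04) and -1.31 ± 0.16 with beads (2.47-fold lower, adjusted p = 8.26e-04). It passed in all 19 alternative settings in both comparisons, ranging from -1.58 to -1.26 unstimulated and from -1.44 to -1.23 with beads.

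Casp1 encodes the protease that matures IL-1β and IL-18. Unstimulated TLR9KO arrays held 9.07 and 8.65, and unstimulated WT arrays 8.20, 8.31 and 7.84. With beads TLR9KO arrays held 8.25 and 8.72, and WT arrays 8.35, 8.24 and 7.06. The unstimulated groups did not overlap, whereas with beads WT array 1 lay within the TLR9KO range and WT array 3 was far below its mates. The differences of 0.74 ± 0.36 (95% interval -0.06 to 1.55) and 0.60 ± 0.36 (-0.20 to 1.41) did not pass (adjusted p = 0.339 and 0.556). Without WT bead array 3 the unstimulated difference passed (0.74, adjusted p = 0.0145), and that with beads was 0.19 (adjusted p = 0.521).

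Casp4, the mouse gene for caspase-11, encodes the protease that binds cytosolic lipopolysaccharide and starts pyroptosis. Unstimulated TLR9KO arrays held 7.85 and 7.72, against 6.67, 6.61 and 6.39 in unstimulated WT arrays. With beads TLR9KO arrays held 7.13 and 7.54, against 6.79, 6.72 and 6.04 in WT arrays. The groups did not overlap in either comparison. The unstimulated difference was 1.23 ± 0.22 (2.34-fold, adjusted p = 0.00845), and that with beads was 0.82 ± 0.22 (adjusted p = 0.061). Without TLR9KO unstimulated array 1 or 2 the unstimulated call ended (adjusted p = 0.0902 and 0.0596). The difference with beads passed without WT bead array 1 (0.96, adjusted p = 0.0497) or array 3 (0.58, adjusted p = 0.0143). Casp1 and Casp4 lie next to each other on chromosome 9, 1567 bases apart in GRCm38.p6.

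**Figure D3:**
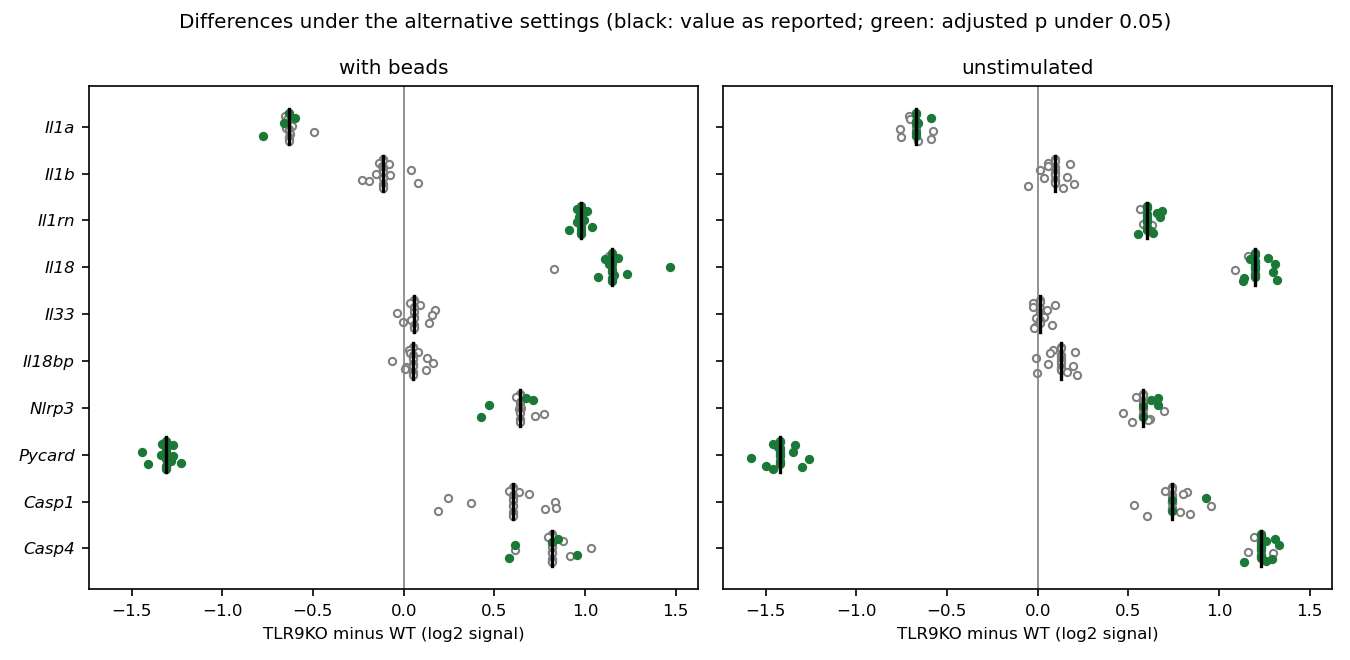
Difference in log2 signal between the TLR9KO and wild-type lines (x axis) under each alternative setting, with beads and unstimulated, for the 10 genes (y axis). Black bars are the reported values, and green points passed at an adjusted p under 0.05. All points of Pycard are green, between -1.44 and -1.23 with beads and between -1.58 and -1.26 unstimulated, and none of Il1b, Il33 or Il18bp is.

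The promoters of Casp4, Il18, Il1rn and Pycard are shown because their mRNA differed. These 4 had the smallest adjusted p of the 10 genes in limma without beads, and Casp4 did not pass with beads. Each sequence is the 250 bases before the RefSeq start in GRCm38.p6. All 10 genes matched the RefSeq promoter table, in 15 windows. Every window was searched on both strands, with 0 mismatches, for the NF-κB site (κB), the interferon regulatory factor pair (GAAA and again GAAA after 2 bases of any kind), the STAT site TTCNNNGAA and the AP-1 site TGANTCA. These occurred in 7.25%, 2.98%, 7.02% and 6.75% of 32851 RefSeq windows. Capitals mark matches, and a match is only a run of letters, not shown to be bound.
Casp4, chr9:5308599-5308848, plus strand: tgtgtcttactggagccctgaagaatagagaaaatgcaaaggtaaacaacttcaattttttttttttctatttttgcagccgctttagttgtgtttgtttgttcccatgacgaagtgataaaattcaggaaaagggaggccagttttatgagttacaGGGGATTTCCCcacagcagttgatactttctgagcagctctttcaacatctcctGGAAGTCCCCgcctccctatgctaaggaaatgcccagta
Il18, chr9:50554450-50554699, plus strand: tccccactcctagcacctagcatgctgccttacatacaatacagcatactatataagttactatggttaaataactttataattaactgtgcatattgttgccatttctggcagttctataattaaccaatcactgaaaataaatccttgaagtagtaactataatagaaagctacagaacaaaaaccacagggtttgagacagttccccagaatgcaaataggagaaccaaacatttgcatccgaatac
Il1rn, chr2:24336610-24336859, plus strand, the first of 3 starts: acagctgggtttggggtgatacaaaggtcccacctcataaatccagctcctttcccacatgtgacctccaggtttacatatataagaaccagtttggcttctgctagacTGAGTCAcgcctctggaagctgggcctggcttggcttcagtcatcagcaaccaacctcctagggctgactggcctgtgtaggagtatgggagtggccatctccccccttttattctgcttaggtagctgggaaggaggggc
Pycard, chr7:127993868-127994117, minus strand: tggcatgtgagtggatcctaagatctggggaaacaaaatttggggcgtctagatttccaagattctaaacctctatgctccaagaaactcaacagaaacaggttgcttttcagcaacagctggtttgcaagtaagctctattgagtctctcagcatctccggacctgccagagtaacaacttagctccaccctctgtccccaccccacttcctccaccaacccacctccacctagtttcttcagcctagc
The Casp4 window shown is that of the first of 2 starts. It holds 2 κB matches that overlap, from 93 to 83 bases before the start, and 1 on the opposite strand from 39 to 30 bases before it. The Il1rn window shown holds an AP-1 match from 141 to 135 bases before the start. The windows of the other Il1rn starts, and those of Il18 and Pycard, hold none of these letters. Which Il1rn start these cells use was not tested. Of the 10 genes, 2 had a κB match (Casp4 and Nlrp3), 2 had an AP-1 match (Il1rn and Il1a) and 0 had either of the other motifs. Of all genes in the promoter table, 8.23% had a κB match and 7.82% an AP-1 match in any window.

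Beads changed none of the 10 genes at the threshold in either line, and no gene of the 19938 passed in limma (0%) in either line or in the difference between the responses. At an unadjusted p under 0.05, 1 of the 10 genes passed in each of the 3 tests, Il1rn each time. The same threshold was passed by 1.80% of all genes in the TLR9KO line, 0.838% in the wild-type line and 0.863% in the difference. Leaving out WT bead array 3 gave 2 of the 10 genes in each test, where the shares of all genes were 4.56%, 11.5% and 4.90%. Il1rn was again 1 of the 2 each time. It was joined by Casp4 in the TLR9KO line (-0.45, adjusted p = 0.602), Nlrp3 in the wild-type line and Casp4 in the difference between the responses, at -0.65 against -0.41 with that array (adjusted p = 0.844 and 1). None of the 10 passed without it, where 0.0853% of all genes passed in the TLR9KO line, 0% in the wild-type line and 0.00502% in the difference. Arrays with and without beads did not overlap for 5 of the 10 genes in the TLR9KO line, where 24.4% of all genes did not overlap. In the wild-type line this held for 1 gene, Il1rn, where 3.53% of all genes did not overlap.

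The bead difference of Il1rn was 0.60 ± 0.11 in the TLR9KO line (95% interval 0.34 to 0.85, unadjusted p = 4.68e-04 in limma, adjusted p = 0.673, and 0.0589 without WT bead array 3). In the wild-type line it was 0.22 ± 0.09 (0.02 to 0.43, unadjusted p = 0.0369, adjusted p = 1). Both bead arrays of the TLR9KO line and all 3 of the wild-type line were above every unstimulated array of the same line. The responses differed by 0.37 ± 0.15 (95% interval 0.04 to 0.70, unadjusted p = 0.0307, adjusted p = 1). The smallest adjusted p of any gene was 0.514 in the TLR9KO line.

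Il1b, the classical priming gene, differed with beads by -0.01 ± 0.22 in the TLR9KO line (95% interval -0.51 to 0.48) and by 0.20 ± 0.18 in the wild-type line (-0.21 to 0.60). The wild-type value was 0.01 without WT bead array 3 (-0.29 to 0.30). Nlrp3 differed by 0.20 ± 0.21 in the TLR9KO line (-0.27 to 0.67) and by 0.14 ± 0.17 in the wild-type line (-0.24 to 0.53). Without WT bead array 3 the wild-type value of Nlrp3 was 0.36 (0.14 to 0.57, adjusted p = 0.328).

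The caspases had negative bead differences in both lines that did not pass. Casp4 was at -0.45 ± 0.24 in the TLR9KO line (95% interval -0.999 to 0.10) and at -0.04 ± 0.20 in the wild-type line (-0.49 to 0.40). Casp1 was at -0.37 ± 0.39 in the TLR9KO line (-1.26 to 0.51) and -0.23 ± 0.32 in the wild-type line (-0.95 to 0.49). Their wild-type values without WT bead array 3 were positive, 0.19 for Casp4 and 0.18 for Casp1. The remaining 5 genes (Il1a, Il18, Il33, Il18bp and Pycard) had bead differences between -0.23 and 0.23, also without a call.

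**Figure D4:**
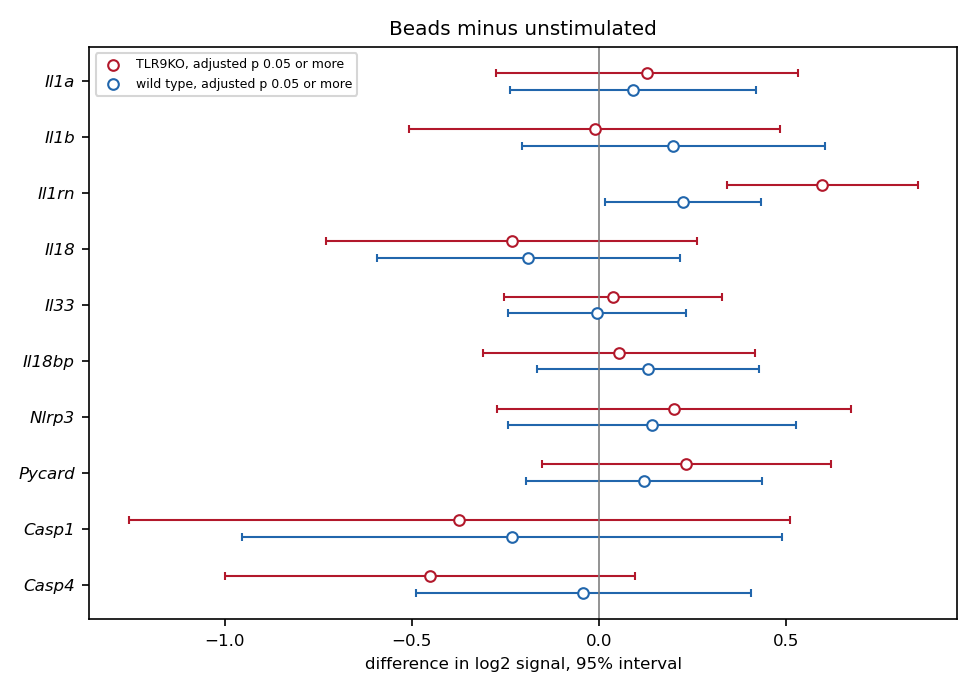
Difference in log2 signal between beads and unstimulated (x axis) for the 10 genes (y axis) in the TLR9KO and wild-type lines, as points with 95% confidence intervals of the limma fit. No point passed at an adjusted p under 0.05. The intervals of Il1rn lie above 0 in both lines, from 0.34 to 0.85 in TLR9KO and from 0.02 to 0.43 in WT.

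Another 64 measured genes of the pathway, of 81 listed, fell into 6 lists. None of 8 receptors and decoys of the IL-1 family passed between the lines in limma. An unadjusted p under 0.05 was reached by 0 of them unstimulated and 1 with beads, where the shares of all genes were 17.9% and 16.1%. Of these receptors 1 was lower with beads when WT bead array 3 was left out. Il1r2, Il1rl2, Il18r1, Il1rapl1 and Il1rapl2 were at low signal in every array, so differences in them may not be visible. Il1r1 and Il1rl1, also listed, were not measured. The ligand Il1f10, the 1 measured gene of 5 in its list, did not pass either. Of 13 genes of IL-1 receptor signalling, only Irak3 passed, in both comparisons. It encodes IRAK-M, an inhibitor of signalling below IL-1 and Toll-like receptors, and was higher in TLR9KO by 1.21 ± 0.11 unstimulated (adjusted p = 1.39e-04) and 1.14 ± 0.11 with beads (adjusted p = 2.23e-04). Leaving out WT bead array 3 gave 1 higher and 1 lower unstimulated, and 2 higher and 1 lower with beads. Among all genes 8.25% passed unstimulated and 7.22% with beads, and 18.4% and 20.9% without that array.

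Of 13 other sensors, 3 were higher and 1 was lower in the unstimulated TLR9KO line, with a median of 0.17, where 8.25% of all genes passed. Aim2, the sensor of cytosolic DNA that recruits ASC, fell by 0.94 on the log2 scale (SE 0.21, adjusted p = 0.0209). Nlrp1b (0.69 ± 0.13), Nlrp1a (0.63 ± 0.10) and Nlrp10 (0.57 ± 0.15) were higher. Nlrp1a and Nlrp1b are close paralogs, and whether their probes read each other was not tested. The calls of Aim2, Nlrp1b and Nlrp10 ended without either TLR9KO unstimulated array (adjusted p = 0.0593 to 0.257), and those of Aim2 and Nlrp10 also without WT unstimulated array 1 or 2 (adjusted p = 0.0602 to 0.135). The call of Aim2 further ended without WT unstimulated array 3 (adjusted p = 0.0698), and that of Nlrp10 without either TLR9KO bead array (adjusted p = 0.0655). With beads Nlrp1a alone passed (0.81 ± 0.10, adjusted p = 8.87e-04), where 7.22% of all genes passed. Without WT bead array 3 the count with beads was 2 higher and 4 lower, where 20.9% of all genes passed.

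Of 9 measured genes of pyroptosis and cytokine release, 2 were higher in the TLR9KO line in both comparisons, and 3 were higher and 2 lower in each without WT bead array 3. Among all genes 8.25% passed unstimulated and 7.22% with beads, and 18.4% and 20.9% without that array. The median of the list was 0.30 unstimulated and 0.17 with beads. Ripk3, a kinase of necroptosis, was higher by 1.26 ± 0.15 unstimulated and 1.33 ± 0.15 with beads (adjusted p = 9.03e-04 and 6.66e-04). Gsdmd, the pore protein that caspase-1 and caspase-11 cleave, was higher by 0.49 ± 0.11 and 0.45 ± 0.11 (adjusted p = 0.0284 and 0.0451), but its call held in 15 of 19 alternatives unstimulated and in only 8 of 19 with beads. It was lost, among others, without TLR9KO unstimulated array 2 (0.35, adjusted p = 0.282) and TLR9KO bead array 2 (0.39, adjusted p = 0.325).

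Of 20 measured regulators of the inflammasome, 7 were higher and 2 lower in the TLR9KO line in both comparisons, with a median over the list of 0.28 unstimulated and 0.07 with beads. Among all genes 8.25% and 7.22% passed in these comparisons. Leaving out WT bead array 3 gave 9 higher and 4 lower unstimulated, and 8 higher and 5 lower with beads. The shares of all genes then rose to 18.4% and 20.9%. The 4 with the largest differences were the same with and without beads. Trim30a, an interferon-induced protein that in mice restrains NLRP3, was 10.0-fold higher unstimulated (3.33 ± 0.22) and 5.98-fold higher with beads (2.58 ± 0.22). The interferon-induced GTPases Irgm1 (2.22 ± 0.21 and 1.93 ± 0.21) and Gbp3 (2.13 ± 0.16 and 1.75 ± 0.16) and the phosphatase Ptpn22 (2.14 ± 0.15 and 2.45 ± 0.15) were higher too. The 2 lower regulators are named here after their values were seen. Serpinb1a, an inhibitor of serine proteases, was at -1.22 ± 0.16 unstimulated and -0.97 ± 0.16 with beads, the second of which lost its call without TLR9KO bead array 1 (-0.86, adjusted p = 0.0645). Panx1, a membrane channel that releases ATP, was at -1.11 ± 0.11 and -1.15 ± 0.11. No pathway gene passed for beads in limma, with 2 of 64 at an unadjusted p under 0.05 in each line, where 1.80% of all genes in the TLR9KO line and 0.838% in the wild-type line reached it. Without WT bead array 3 these were 6 of 64 in the TLR9KO line and 12 of 64 in the wild-type line, where 4.56% and 11.5% of all genes did.

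**Figure D5:**
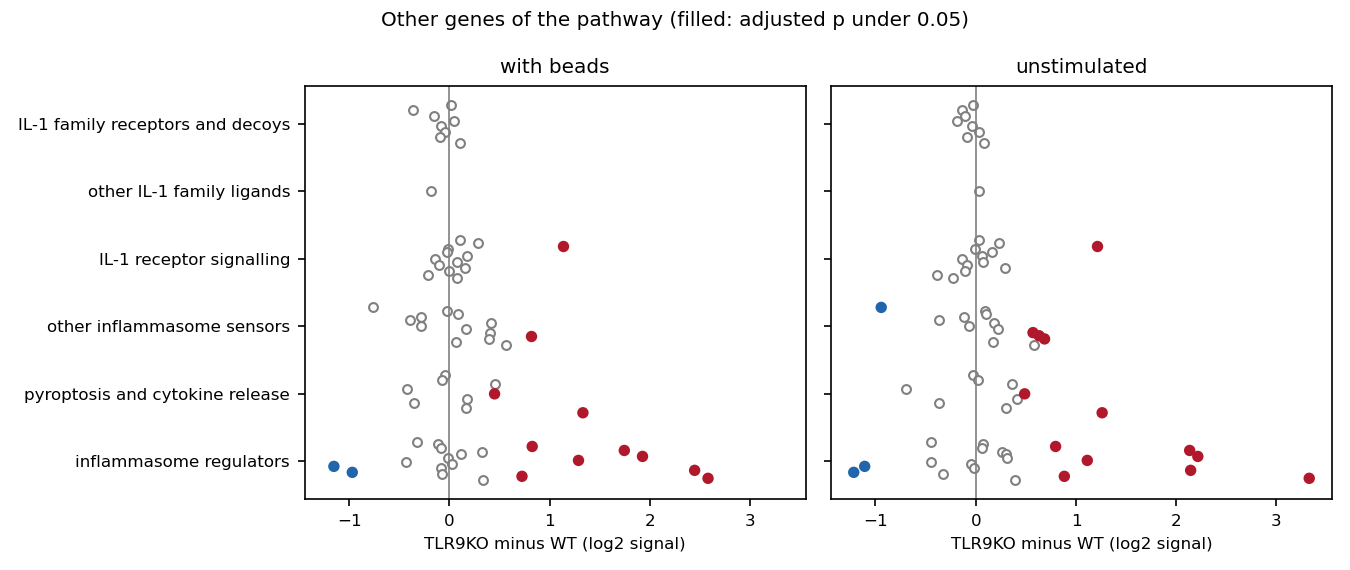
Difference in log2 signal between the TLR9KO and wild-type lines (x axis) for 64 other genes in 6 pathway lists (y axis), with beads and unstimulated. Filled points passed at an adjusted p under 0.05, red for higher and blue for lower in TLR9KO. Trim30a lies farthest right, at 2.58 with beads and 3.33 unstimulated. None of the 8 measured receptors and decoys passed, of which Il1r2, Il1rl2, Il18r1, Il1rapl1 and Il1rapl2 were at low signal.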

How the data were processed

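Total RNA was amplified from 100 ng, and 5.5 µg of cDNA was labelled with biotin, per the labels. The authors deposited log2 signal values per probe set, made with RMA per the submitters' processing notes. The version is not given in the sources here, and whether the 10 arrays were normalized together is unknown. Among 28853 probe sets, 21789 had 1 symbol, 1621 had several and 5443 were unnamed here. Entrez IDs matched 21698 to current symbols. Genes on several probe sets (999) were read by the one with the highest mean. No gene was removed for low signal.

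A mean per group was fitted for each of the 19938 genes with limma 3.58.1 in R 4.3.3 (lmFit, eBayes without trend, not robust; 6 residual and 3.23 prior degrees of freedom). Tests were two-sided, and p-values were Benjamini-Hochberg adjusted over all genes of a contrast. The fit was run on simulated data with independent normal noise and a single SD per gene for all arrays. That setting has no array like WT bead array 3, so it does not check the calls here. Groups came from the labels alone. The number of arrays limits the precision.

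The members, lists and tests were chosen with earlier results of these data known. Named genes were the 10 members, up to 4 called genes per pathway list and contrast with the largest difference, and the 5 genes most correlated with Il1b. Promoter sequences are from RefSeq (GRCm38.p6). Alternatives were eBayes with a trend, eBayes made robust, arrays centred on their 75th percentile or on their median, quantile normalization, a filter at the 25th percentile, the mean of a gene's probe sets, array weights, the compared groups alone, and leaving out each array. The pathway genes' alternatives, and the counts at an unadjusted p without WT bead array 3, were added after seeing the data.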

Additional observations from a re-analysis of the deposited data

How the results depend on the processing

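Few arrays and low signal of Il1a and Il33 limit what can be seen. No paired analysis was possible because replicate numbers here only follow accession order. In the unstimulated comparison of the lines, 5 of the 10 genes passed, against 1 after centring on the median and 1 to 7 without 1 array. The shares of all genes there were 8.25%, 3.87% and 3.42% to 18.4%. Array weights and the compared groups alone each gave 5 higher and 2 lower, where 22.3% and 16.4% of all genes passed. With beads 3 passed, against 6 after centring on the 75th percentile, 6 with array weights and 2 to 6 without 1 array. The shares of all genes there were 7.22%, 7.32%, 30.5% and 2.99% to 20.9%. Centring on the median and the compared groups alone each left 1 higher and 1 lower with beads, where 3.68% and 2.41% of all genes passed. The bead response of the wild-type line had 0 calls, and 5 with array weights, where 46% of all genes passed. Casp1 (0.31) and Casp4 (0.27) turned positive with those weights. The weights came from a fit that did not converge and gave WT bead array 3 a weight of 0.07 and WT bead array 2 one of 12.1. The causes of these shifts were not tested. Without 1 array, the count stayed at 0 for the bead response of either line and for the difference of the responses. The filter on low signal leaves no value for Il1a and Il33. A fit of the compared groups alone could not be had for the difference of the responses, which uses all 4 groups.

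Over all genes, the 1645 unstimulated calls became 772 with median centring, 2483 with quantile normalization, 4451 with array weights, 3262 in the compared groups alone, and 681 to 3668 without 1 array. The 1439 calls with beads became 734, 2263, 6083, 480 and 597 to 4171 in the same settings. The bead response of the TLR9KO line had 16 calls with array weights and 17 without WT bead array 3, that of the wild-type line 9174 with array weights, and their difference 9 and 1. Pycard passed in 19 of 19 alternatives in both line comparisons. Il1rn passed in 16 unstimulated and 19 with beads, Il18 in 17 and 16, Casp4 in 16 and 5, Nlrp3 in 5 and 4, Casp1 in 3 and 0, and Il1a in 8 and 4 of 18. Of the pathway genes called between the lines, 10 of 16 unstimulated and 9 of 13 with beads passed in every alternative.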

Other observations

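The genes whose pattern over the 10 arrays was most like that of Il1b were Fndc11 (Pearson r = 0.980), Dpysl5 (0.974), 1110017D15Rik (0.973), 1700011L22Rik (0.972) and Ccn2 (0.972). All 5, like Il1b, were highest in WT bead array 3. Fndc11 was at 6.46 there, against at most 5.93 in any other array, and Ccn2 was at 6.71 against at most 6.22. The points share 1 table and that array, so these correlations describe the table and no test was made. WT bead array 3 also had the highest median over all probe sets, 6.10. Il1b was lowest in WT unstimulated array 2 (4.56), the array with the lowest median, 5.75. Whether the likeness follows the level of the arrays was not tested.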
